A study of Mus musculus with 6 samples.

Results

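The genes described are 10 regulators of lens cell fate, Prox1, Pax6, Six3, Maf, Sox1, Pitx3, Foxe3, Gata3, Mab21l1 and Hopx, measured in newborn mouse lenses that lack the heat shock transcription factor Hsf4. They were chosen by name: each probe set whose platform annotation gives a single gene symbol was taken if that symbol was one of these genes or an older alias (Hod for Hopx). This gave 18 probe sets for the 10 genes, out of 12393 genes with a probe set on the array. Hsf4-null lenses (3 arrays) were set against wild-type lenses (3 arrays), both from newborn ICR mice, and the methods call each set a biological triplicate. The null animals carry no functional Hsf4 allele, and the sources used here do not say whether an array holds the lenses of 1 animal or of several. Values are log2 intensities after RMA, a procedure that removes background, equalizes the distributions of the arrays and summarizes the oligonucleotides of each probe set as a single value. A probe set was called when the adjusted p from limma, a linear model that pools the spread over all 22626 probe sets, was under 0.05.

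The lens arises from surface ectoderm as a vesicle, whose front cells remain a dividing epithelium and whose rear cells elongate into fibres. Cells that leave the epithelium at its rim stop dividing, fill with crystallins and finally lose their nuclei. Pax6, a paired-domain and homeodomain protein, and the homeodomain protein Six3 give ectoderm the competence to form a lens. Foxe3, Pitx3 and Mab21l1 are required in the early lens and its epithelium, whereas Maf, Sox1, Prox1 and Gata3 act in cell cycle exit, elongation and crystallin expression of fibres. Hopx is an unusual homeodomain protein that does not bind DNA itself and acts through partners such as serum response factor (SRF) and the histone deacetylase Hdac2. Hsf4 acts late, in fibre maturation.

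Among these regulators, Hopx rose and Prox1 fell in Hsf4-null lenses, and no probe set of the other 8 genes passed the test. Hopx was 3.87-fold and 2.99-fold higher by its 2 probe sets, and Prox1 was 1.78-fold lower by its single probe set. So 3 of 18 probe sets were called (16.7%), 2 higher and 1 lower, where over all probe sets tested 2.66% were called, 0.72% higher and 1.94% lower. The median log2 fold change of the 18 was -0.02, against 0.00 over all tested probe sets. With the brightest probe set of each gene, 2 of 10 genes were called, against 2.88% of all genes. Between groups, 7 of the 18 probe sets (38.9%) had no overlap, 2 higher and 5 lower, where 21.1% of all tested probe sets had none, 9.37% higher and 11.7% lower. These counts describe a small list chosen by name with earlier results of these data known. The choice itself can raise its shares above those of all probe sets, so they are no test of lens regulators as a group.

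**Figure D1:**
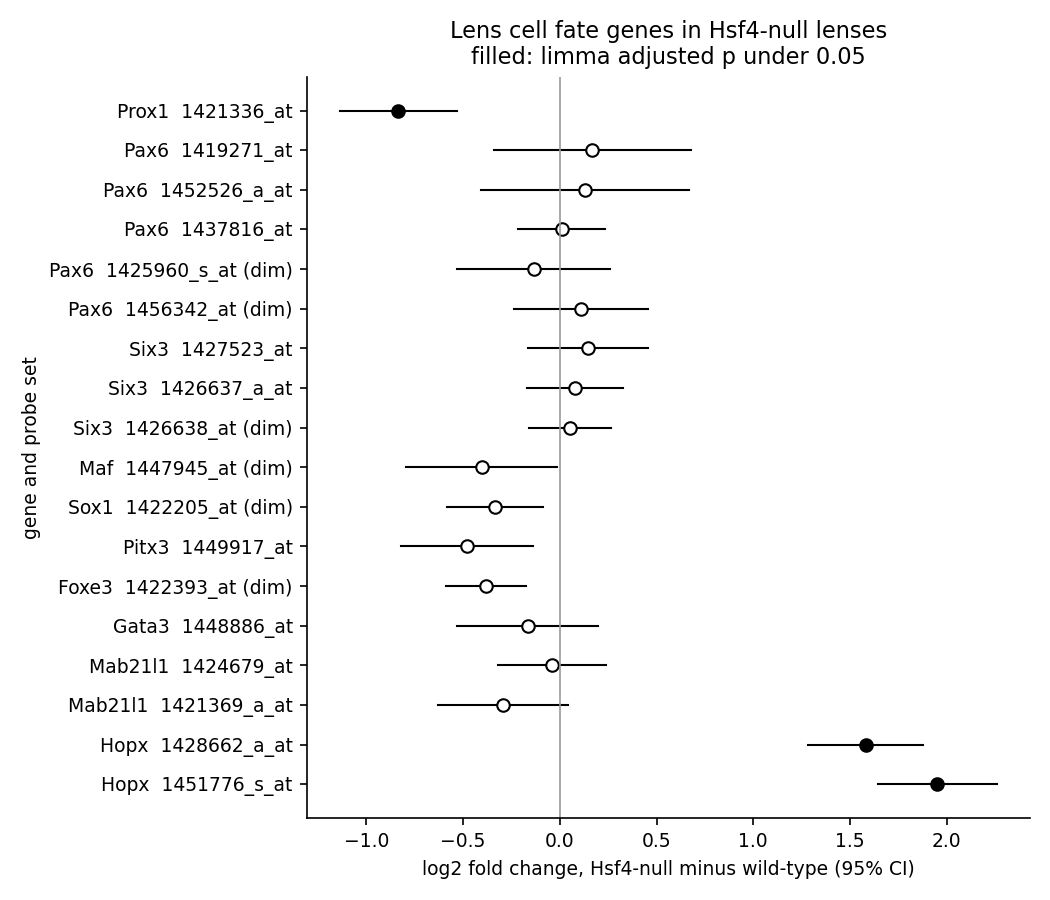
Log2 fold change (Hsf4-null minus wild-type, horizontal axis) of the 18 probe sets of the 10 regulators, with 95% confidence intervals from limma; filled points passed an adjusted p of 0.05 and "dim" marks means under the lowest array median of 5.22. The 2 Hopx probe sets lie at 1.58 and 1.95 and Prox1 at -0.83, while the intervals of all Pax6, Six3, Gata3 and Mab21l1 probe sets include 0.

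To place the 2 genes that moved, the bases upstream of their outermost annotated start are shown, together with the single match to a heat shock element among the regulators. They were taken from RefSeq (GRCm38.p6), 250 bases before a start, 5′ to 3′ on the gene's strand. Capitals mark a CArG box, the element bound by SRF, in Hopx (it starts at position -83 counted from the transcription start) and an inverted pair of heat shock repeats in the 30 bases of Pax6 (from position -70).
Prox1, minus strand, chr1:190170828-190171077: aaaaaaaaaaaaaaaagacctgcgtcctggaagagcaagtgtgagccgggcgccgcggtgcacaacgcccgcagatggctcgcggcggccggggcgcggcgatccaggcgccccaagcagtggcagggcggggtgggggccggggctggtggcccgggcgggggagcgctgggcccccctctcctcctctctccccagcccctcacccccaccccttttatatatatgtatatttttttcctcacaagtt
Hopx, minus strand, chr5:77115124-77115373: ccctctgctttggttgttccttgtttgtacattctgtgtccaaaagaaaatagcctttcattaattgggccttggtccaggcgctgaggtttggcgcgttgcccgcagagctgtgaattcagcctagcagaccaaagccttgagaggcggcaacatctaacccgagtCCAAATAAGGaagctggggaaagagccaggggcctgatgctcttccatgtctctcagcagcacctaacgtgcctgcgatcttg
Pax6, plus strand, chr2:105682382-105682411: cttccgcctatTTCCAGAAattaagctcaa

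Heat shock factors bind inverted repeats of the unit nGAAn, so GAANNTTC and TTCNNGAA were searched; each is its own reverse complement, so 1 strand covers both, and the 2 patterns can overlap. Over all 32851 windows of this length, 6.69% held GAANNTTC, 7.17% held TTCNNGAA and 12.8% held either. The table had 11 windows for 8 of the regulators, and 1 of the 11, an internal Pax6 start, held a match. Neither window of Prox1 nor either window of Hopx held these letters. The CArG box, searched on both strands after the Hopx sequence had been read, occurred in 1.47% of all windows. Among the 11 windows of the regulators it occurred in 1 of the 2 Hopx windows and in the Foxe3 window (from position -33). Foxe3 was dim and read lower in Hsf4-null lenses without passing the test (limma adjusted p = 0.0808). The CArG box also occurred upstream of Cnn2, Myl9, Srf and Vcl among 10 genes with a window in a list of SRF targets and partners. None of Cnn2, Myl9, Srf and Vcl was called. Egr1 and Fos, the genes called in that list (below), were not among the matches. That count is of genes with a match in any window, unlike the share of windows above. These matches describe letters in a window and give no evidence of binding.

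Hopx, reported to take part in lens fibre differentiation, had the largest increase of the 10 genes. By probe set 1451776_s_at the log2 intensity was 10.82, 11.15 and 10.78 in the Hsf4-null arrays, against 8.96, 8.83 and 9.10 in the wild-type arrays. Every null array lay above every wild-type array, by at least 1.68. The means were 10.91 ± 0.20 in Hsf4-null lenses and 8.96 ± 0.13 in wild-type lenses (SD, n = 3 each), a log2 fold change of 1.95 (95% interval 1.64 to 2.26, limma adjusted p = 0.000302). Among all tested probe sets, it had the increase of rank 20.

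The other Hopx probe set, 1428662_a_at, moved the same way. It read 11.71, 12.09 and 11.69 in Hsf4-null lenses, against 10.25, 10.21 and 10.29 in wild-type lenses. The wild-type values lay within a span of less than 0.1, and the lowest null array was 1.41 above the highest of them. The means of 11.83 ± 0.22 in Hsf4-null lenses and 10.25 ± 0.04 in wild-type lenses (SD, n = 3 each) differed by 1.58 on the log2 scale (1.28 to 1.88, limma adjusted p = 0.000744). In both probe sets the second Hsf4-null array was the highest of the 6.

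A suffix of _a_at marks probes shared by transcripts of 1 gene and _s_at marks probes that may also match transcripts of other genes, so both readings were set against each other within each array. The 1451776_s_at value minus the 1428662_a_at value was -0.90, -0.94 and -0.91 in Hsf4-null lenses, against -1.30, -1.38 and -1.19 in wild-type lenses. The increase read by 1451776_s_at was thus larger by 0.37 on the log2 scale. An exact two-sided permutation test gave p = 0.1, the smallest that 3 arrays against 3 allow, and 0.3 after adjustment over the 6 such pairs of probe sets compared. The corresponding differences for the pairs of Pax6 and Six3 probe sets lay between -0.16 and -0.04.

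Prox1, a homeodomain factor required for fibre cells to leave the cell cycle and elongate, moved in the opposite direction. Probe set 1421336_at read 8.41, 8.73 and 8.40 in the Hsf4-null arrays, against 9.32, 9.22 and 9.50 in the wild-type arrays. The groups did not overlap, with a gap of 0.49 between the highest null and the lowest wild-type array. The means of 8.51 ± 0.19 in Hsf4-null lenses and 9.35 ± 0.14 in wild-type lenses (SD, n = 3 each) gave a log2 fold change of -0.83 (-1.14 to -0.53, limma adjusted p = 0.0161). The call was lost when an array was left out in 3 of 6 cases: without Hsf4-null replicate 1, Hsf4-null replicate 3 or wild-type replicate 3 the log2 fold change was -0.78, -0.78 and -0.76, with limma adjusted p of 0.0622, 0.0765 and 0.0599. In whole lenses, less Prox1 RNA per cell and fewer cells that carry it cannot be told apart, and the same holds for every gene here.

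**Figure D2:**
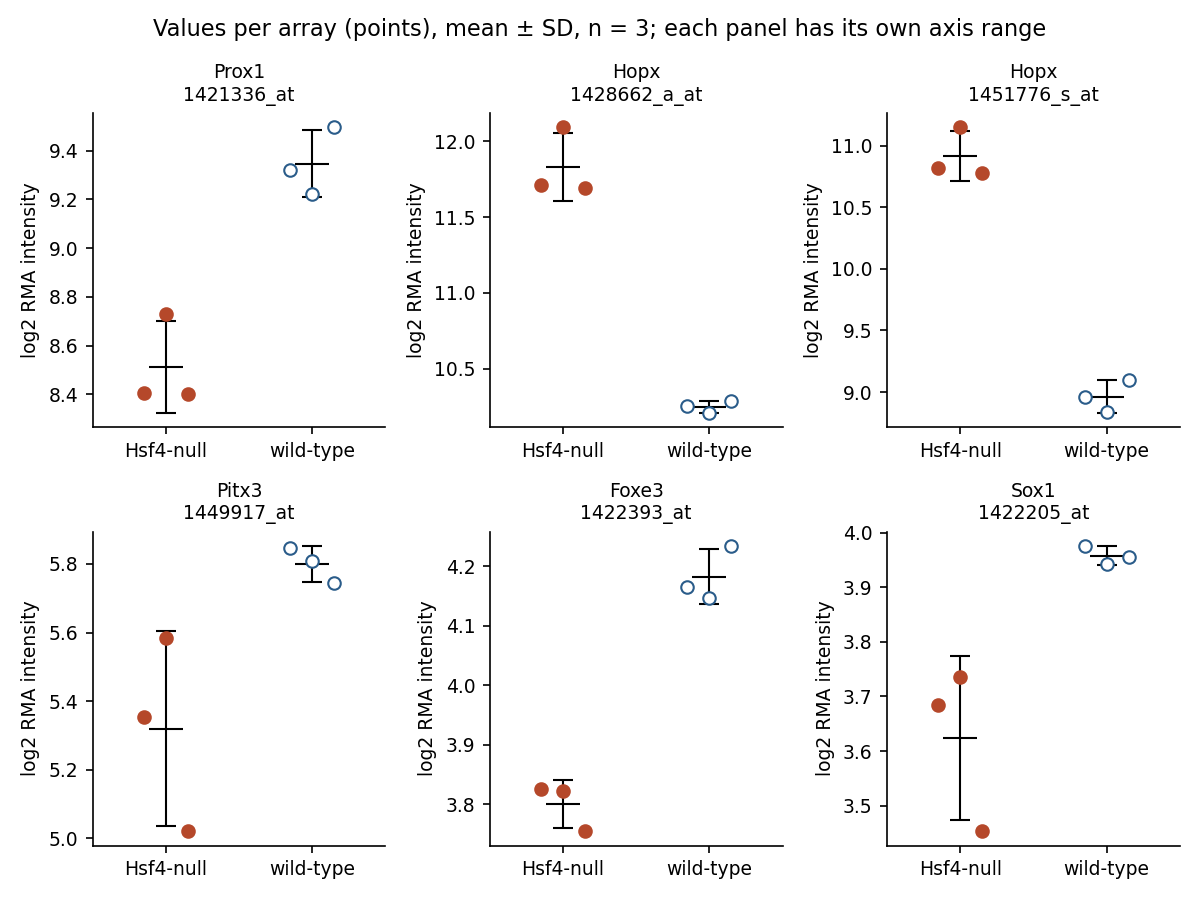
Log2 RMA intensity per array (points, Hsf4-null filled and left, wild-type open and right) with mean ± SD (n = 3) for 6 probe sets; each panel has its own axis. The groups are apart by 0.49 for Prox1, by 1.41 and 1.68 for Hopx, and by 0.16, 0.32 and 0.21 for Pitx3, Foxe3 and Sox1, whose adjusted p did not pass.

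A second set of regulators, each with 1 probe set, lay lower in all 3 Hsf4-null arrays without passing the test. Foxe3, a forkhead factor that keeps the epithelium dividing, read 3.82, 3.82 and 3.75 in Hsf4-null lenses, against 4.17, 4.15 and 4.23 in wild-type lenses. Its log2 fold change was -0.38 (-0.59 to -0.17, limma adjusted p = 0.0808), the nearest to the threshold among those not called. All 6 values were under the lowest array median of 5.22, where RMA values separate weakly from background and no detection calls were used here.

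Pitx3, the homeodomain factor affected in the aphakia mouse, read 5.35, 5.58 and 5.02 in Hsf4-null lenses, against 5.85, 5.81 and 5.74 in wild-type lenses. The null arrays spread more widely than the wild-type arrays, with SDs of 0.28 in Hsf4-null and 0.05 in wild-type lenses, and the closest values of the groups were 0.16 apart. The log2 fold change was -0.48 (-0.82 to -0.14, limma adjusted p = 0.172).

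Sox1, an HMG-box factor needed for gamma-crystallin expression, read 3.68, 3.74 and 3.45 in Hsf4-null lenses, against 3.98, 3.94 and 3.96 in wild-type lenses. Its log2 fold change was -0.33 (-0.58 to -0.09, limma adjusted p = 0.190). Maf, a basic leucine zipper factor that activates crystallin genes, read 4.22, 4.26 and 4.20 in Hsf4-null lenses, against 4.40, 4.46 and 5.03 in wild-type lenses. The distance between the Maf means came largely from wild-type replicate 3: the log2 fold change was -0.40 (-0.79 to -0.01, limma adjusted p = 0.309), and -0.20 without that array. Both probe sets were dim, so low readings say little about how much Sox1 or Maf RNA the lens holds.

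Gata3, a zinc finger factor linked to cell cycle exit of fibres, did not separate the groups. It read 6.14, 6.11 and 6.11 in Hsf4-null lenses, against 6.11, 6.10 and 6.65 in wild-type lenses, so 5 of the 6 arrays were nearly level and wild-type replicate 3 stood above them. The log2 fold change of -0.17 (-0.53 to 0.20, limma adjusted p = 0.671) became 0.02 without that array.

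Pax6 had 5 probe sets, and their log2 fold changes ran between -0.14 and 0.17 with limma adjusted p of at least 0.758. The brightest, 1419271_at, read 11.02, 10.44 and 11.09 in Hsf4-null lenses, against 10.93, 10.81 and 10.31 in wild-type lenses. Its log2 fold change was 0.17 (-0.34 to 0.68), an interval that leaves room for changes as large as those of several regulators above. Probe set 1452526_a_at read 7.99, 7.22 and 7.97 in Hsf4-null lenses, against 7.86, 7.62 and 7.31 in wild-type lenses. Both were lowest in Hsf4-null replicate 2 and wild-type replicate 3, so the spread lay within the groups. The third, 1437816_at, did not share this pattern, at 6.52, 6.53 and 6.69 in Hsf4-null lenses, against 6.60, 6.51 and 6.61 in wild-type lenses, with a difference of 0.01 (-0.22 to 0.23). The other 2 Pax6 probe sets, 1425960_s_at and 1456342_at, were dim, with log2 fold changes of -0.14 and 0.11.

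Six3 had 3 probe sets, with log2 fold changes of 0.15, 0.08 and 0.05 and limma adjusted p between 0.661 and 0.829. The brightest, 1427523_at, read 9.08, 8.99 and 9.35 in Hsf4-null lenses, against 8.95, 9.18 and 8.86 in wild-type lenses, with an interval of -0.17 to 0.46. Mab21l1, a protein of the Mab-21 family whose loss impairs invagination of the lens placode, had 2 probe sets that disagreed in size. By 1424679_at it read 9.03, 8.78 and 9.10 in Hsf4-null lenses, against 8.90, 9.13 and 9.0 in wild-type lenses, a log2 fold change of -0.04 (-0.32 to 0.24, limma adjusted p = 0.905). By 1421369_a_at the difference was -0.29 (-0.63 to 0.04, limma adjusted p = 0.395), and the null and wild-type values overlapped only narrowly, with 7.75, 7.48 and 7.99 in Hsf4-null lenses and 7.97, 8.16 and 7.95 in wild-type lenses. The 2 probe sets differed by 0.25 in their change, at the smallest p the exact permutation test allows (0.1, and 0.3 after adjustment).

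The summed level of retina markers differed widely between the arrays, and some of the regulators differed with it. The retina lies next to the lens and itself expresses Pax6 and Six3. The summed level of 9 measured retina markers of 12 listed was 10.64, 7.94 and 10.69 on the log2 scale in Hsf4-null arrays, against 9.14, 10.30 and 8.78 in wild-type arrays. The groups overlapped, and no retina marker was called. Snap25, a synaptic protein of neurons, was at 9.55, 5.15 and 9.41 in Hsf4-null arrays, against 7.35, 9.0 and 5.91 in wild-type arrays. Rcvrn and Pde6b, markers of photoreceptors, stayed between 3.48 and 4.0. Crx, another photoreceptor marker and also dim, varied more, in the order of Snap25 between high and low arrays. It read 5.43, 4.27 and 5.26 in Hsf4-null arrays, against 4.48, 5.26 and 4.20 in wild-type arrays. Elavl4 did not keep this order, at 7.12, 4.70 and 7.14 in Hsf4-null arrays, against 6.75, 7.45 and 7.44 in wild-type arrays. It was high in wild-type replicate 3, where the sum was low. The sum is the log2 of summed linear intensities, so the brightest marker weighs most. That was Snap25 in the arrays with high sums and Elavl4 in wild-type replicate 3, so the sum is no common level of all markers. The 3 arrays with the lowest sum (Hsf4-null replicate 2 and wild-type replicates 1 and 3) were also the lowest 3 for Six3 by 1427523_at. For the 2 brightest Pax6 probe sets the lowest 3 were Hsf4-null replicate 2 and wild-type replicates 3 and 2, and wild-type replicate 2 had a high sum. With the retina sum as a covariate in limma, an alternative chosen after seeing the data, the slopes per unit of the sum, on the log2 scale, were 0.23 and 0.24 for the 2 brightest Pax6 probe sets and between 0.0081 and 0.12 for the other 3. They were 0.11, 0.081 and -0.022 for Six3, 0.11 and 0.15 for Mab21l1, -0.13 for Prox1, -0.12 and -0.14 for Hopx, and between -0.11 and -0.019 for Maf, Sox1, Pitx3, Foxe3 and Gata3. The fitted slopes of Pax6 and Six3 thus differed by probe set, and those of Prox1 and Hopx were as large in size as that of the brightest Six3 probe set. No standard errors were taken for the slopes, so differences between them were not tested. The calls were the same in that fit: Prox1 at -0.79 (limma adjusted p = 0.00918), Hopx at 1.63 and 2.0 (limma adjusted p = 0.000435 and 0.000168), and no Pax6 or Six3 probe set called.

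**Figure D3:**
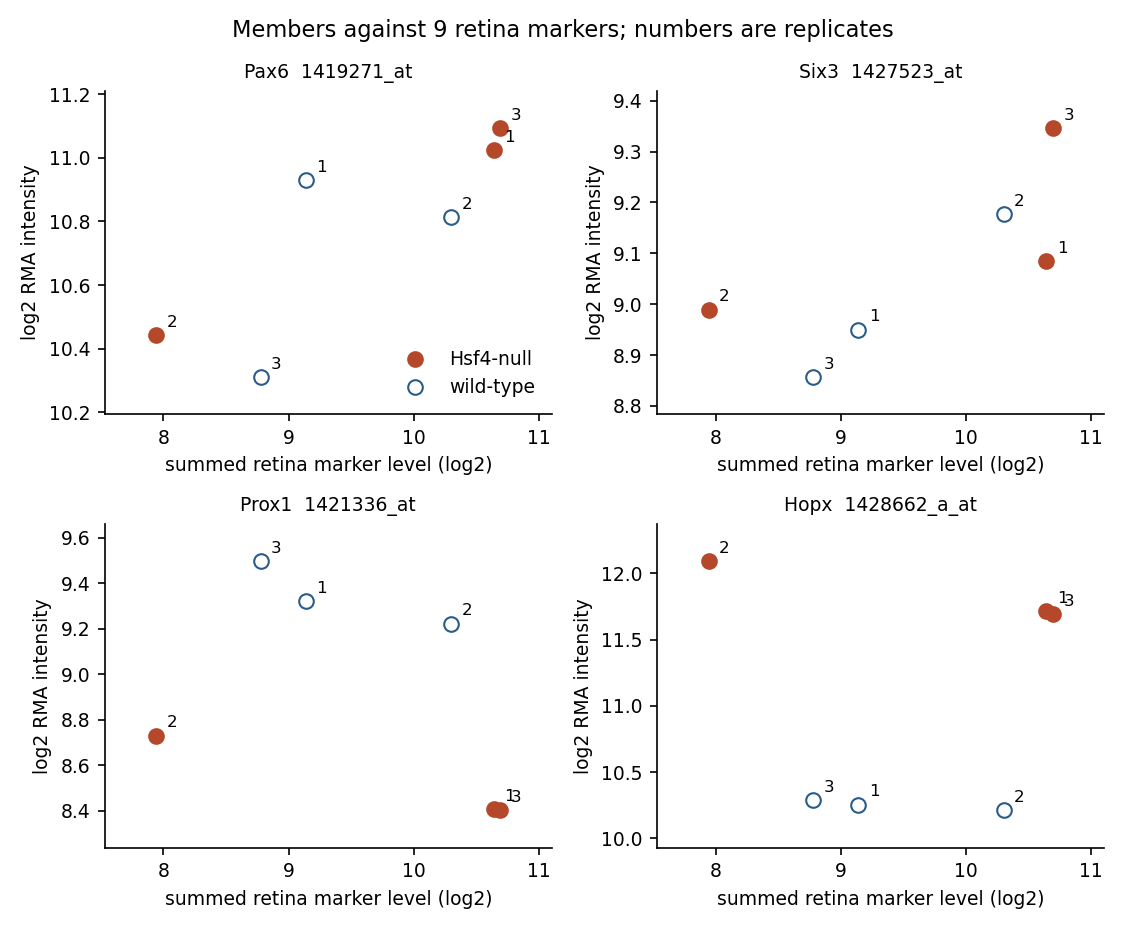
Log2 RMA intensity of 4 probe sets (vertical) against the summed level of 9 retina markers in the same array (horizontal, log2); filled points are Hsf4-null, open points wild-type, and the numbers are replicates. Six3 is lowest in the 3 arrays with the lowest sums, whereas Pax6 is high in wild-type replicate 1 despite a low sum, and Prox1 and Hopx stay apart by group at both low and high sums.

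Genes around these regulators gave few further calls. Their lists were 22 measured relatives of the same families (of 29), 28 other lens regulators (of 29), 15 genes of the step into fibre differentiation and 7 epithelial genes, and in none of these 4 lists was a gene called. Their median log2 fold changes were 0.03, 0.05, 0.06 and 0.10, beside a median of 0.01 over all genes. The smallest p among relatives belonged to Mab21l2, the paralogue of Mab21l1, and Pax3 (log2 fold changes 0.65 and 0.16, limma adjusted p = 0.535 and 0.551). Among other lens regulators it belonged to Tcf7l2, a Wnt pathway factor, and Rxra, a retinoid receptor (-0.43 and 0.36, limma adjusted p = 0.104 and 0.164).

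In the step into fibre differentiation the genes nearest to a call were Cdkn1b, the cyclin-dependent kinase inhibitor p27, and Bmpr1a, a BMP receptor. Cdkn1b read 9.31, 9.28 and 9.01 in Hsf4-null lenses, against 10.21, 9.70 and 9.63 in wild-type lenses, with no overlap. Its log2 fold change was -0.65 (limma adjusted p = 0.116), and that of Bmpr1a was -0.41 (limma adjusted p = 0.0977). Among epithelial genes Cdh1, the cadherin of epithelial junctions, and Mki67, a marker of dividing cells, had the smallest p (-0.22 and 0.49, limma adjusted p = 0.496 and 0.575).

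Of 17 measured fibre genes (of 23 listed), 2 fell, none rose and 15 did not pass, with a median log2 fold change of -0.06, where 2.88% of all genes were called. Bfsp1, the beaded filament protein filensin, read 11.65, 11.78 and 11.60 in Hsf4-null lenses, against 13.36, 13.34 and 13.28 in wild-type lenses, a log2 fold change of -1.65 (limma adjusted p = 0.000131). Dnase2b, the nuclease that degrades fibre nuclei, read 9.27, 9.31 and 9.59 in Hsf4-null lenses, against 10.47, 10.61 and 10.81 in wild-type lenses, a log2 fold change of -1.24 (limma adjusted p = 0.0028). The crystallin genes measured, targets of Maf, Sox1 and Pax6 among others, had log2 fold changes between -0.43 for Crygf and 0.06 for Cryba2, and none was called. All crystallin values lay between 13.06 and 14.37, close to the highest values of the arrays (14.28 to 14.37).

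Of 13 SRF targets and Hopx partners, 2 rose, none fell and 11 did not pass, with a median of 0.18, where 2.88% of all genes were called. With the methods' t-test after adjustment, 0 of the 13 passed (5 without adjustment). Egr1, an immediate early zinc finger factor, read 9.94, 10.35 and 9.85 in Hsf4-null lenses, against 8.41, 7.66 and 7.70 in wild-type lenses, a log2 fold change of 2.13 (1.61 to 2.65, limma adjusted p = 0.00266). Fos, an AP-1 subunit, read 7.2, 7.48 and 7.05 in Hsf4-null lenses, against 5.62, 5.55 and 5.80 in wild-type lenses, a log2 fold change of 1.58 (1.27 to 1.90, limma adjusted p = 0.000951). Both are immediate early genes, and in both the second Hsf4-null array was the highest of the 6, as it was for Hopx. The partners themselves did not pass: Srf was at 0.15 and Hdac2 at -0.02. No contractile or cytoskeletal target was called: Acta2 was at 1.05 and Tagln at 1.03 (limma adjusted p = 0.121 and 0.109), Myl9 was at 0.60, Cnn2 at 0.56, Vcl at 0.18, Tpm1 at 0.11, Actg2 at -0.05, Cnn1 at -0.13 and Tpm2 at -0.28.

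Markers of other cell types were read in the same arrays. Of 10 measured mesenchyme markers, Twist1 and Col1a1 rose (log2 fold changes 1.0 and 1.89, limma adjusted p = 0.00341 and 0.0201) and 8 did not pass, among them Col1a2, Col3a1, Prrx1, Prrx2 and Dcn at 0.07, 0.17, -0.13, -0.25 and -0.09. Over all genes 2.88% were called in either direction. Twist1 was dim, and the median over the list was 0.20. The summed level ran between 9.78 and 10.08 in Hsf4-null arrays and between 8.56 and 9.12 in wild-type arrays, without overlap. It is the log2 of summed linear intensities, so the brightest marker weighs most. In every Hsf4-null array that was Col1a1, with a mean of 9.27, against 7.37 in wild-type arrays. A sum without Col1a1 was not computed, so the separation does not show a rise of mesenchyme markers in general. The part of the summed level in the Hopx and SRF target results was not tested. Lens markers (5 of 7 measured) summed to between 15.74 and 15.87 in Hsf4-null arrays and between 16.02 and 16.05 in wild-type arrays. Bfsp1 was the single marker called, at -1.65, while Cryab, Mip, Crygs and Cryaa were at -0.15, -0.14, -0.03 and -0.01. A sum without Bfsp1 was not computed, so this separation does not show a fall of lens markers in general. No gene was called among markers of pigment cells, macrophages, endothelium, cornea and skin, red cells or T cells, though some medians were above that of mesenchyme. Pigment cell markers had a median of 0.46, with Tyrp1, Dct and Pmel at 1.30, 1.30 and 1.27, and a summed level of 11.81 to 12.26 in Hsf4-null arrays and 11.59 to 12.03 in wild-type arrays. Macrophage markers were above 0 in 10 of 10, with a median of 0.39 and a summed level of 9.93 to 10.78 in Hsf4-null arrays and 9.05 to 10.45 in wild-type arrays. Both sums overlapped between the groups, and their part in the results was not tested.

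**Figure D4:**
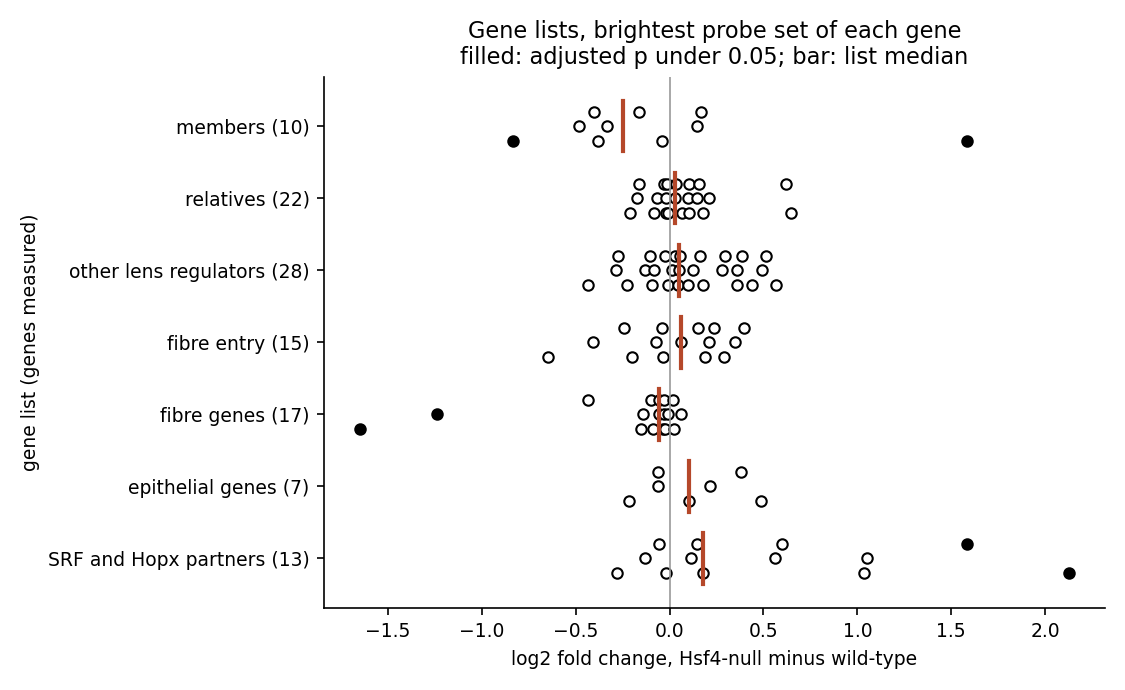
Log2 fold change (Hsf4-null minus wild-type) of the brightest probe set of each gene in 7 lists (rows, number of genes measured in parentheses); filled points passed an adjusted p of 0.05 and the bar is the list median. Called genes are Hopx and Prox1 among the 10 regulators, Bfsp1 and Dnase2b among fibre genes, and Egr1 and Fos among SRF targets and Hopx partners.

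The genes whose values most resembled those of Prox1 and Hopx over the 6 arrays were then listed, out of 10557 probe sets above the lowest array median with a gene name. For Prox1 these were Stat5b, a cytokine signalling factor, at Pearson's r of 0.998, Rasl11b, a Ras-like protein, at 0.997, and Cyp4v3, a fatty acid hydroxylase, at 0.997, with log2 fold changes of -0.54, -0.32 and -1.69. For Hopx by 1428662_a_at they were Exosc7, a subunit of the RNA exosome, at 0.998, Fos at 0.996 and Phf10, a subunit of a Brg1-containing chromatin remodelling complex, at 0.996, with log2 fold changes of 0.22, 1.58 and 0.23. The 6 arrays fall into 2 groups, so such r values mostly carry the group difference and give no measure of shared control.

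As a check of the labels, Hsf4 read 4.26, 4.09 and 3.78 in the arrays labelled Hsf4-null, against 9.09, 9.39 and 9.56 in the wild-type arrays (log2 fold change -5.30, limma adjusted p = 9.54e-06); the sources used here do not place this probe set relative to the deleted region. Array medians were between 5.22 and 5.38 on the log2 scale, and log2 values correlated at 0.991 to 0.994 within groups and 0.982 to 0.990 between groups across probe sets, which are not independent. No array stood apart in these measures.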

How the data were processed

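Newborn Hsf4-null and wild-type lenses (3 arrays each) were profiled on Affymetrix mouse genome arrays, with cDNA made and amplified from 50 ng of total RNA. The deposited values are linear intensities, 1 per probe set and array, after RMA by the authors, for which the sources used here name no software version. The deposited values were converted to log2, 64 array controls were left out, and 22626 probe sets entered a moderated linear model (limma 3.58.1, run in R 4.3.3, with group as its single term, Benjamini-Hochberg adjustment, threshold 0.05, intervals at 95%). Probe sets were named by the platform annotation, with symbols updated through RefSeq. A gene in a list was read by its brightest probe set. The regulators and lists were chosen with earlier results of these data known. Named were all probe sets of the 10 genes, Hsf4, up to 4 called genes per list and direction (otherwise the 2 of smallest p) and the 3 genes most like each called regulator; further genes, such as retina and mesenchyme markers, crystallins and the other SRF targets, were named after their values were seen. The procedure was tested on simulated data. P-values from limma set the group difference against the spread between arrays within groups, pooled over all probe sets. The number of arrays limits the precision. Since the animals per array are not given, that spread may not be the spread between animals. Alternatives were the methods' t-test, the replicate number as a block, other variance models, array weights, and quantile and median scaling. Further ones were a filter on dim probe sets, 1 probe set per gene, leaving out each array and, added after seeing the data, a retina covariate. In the methods the t-test was joined with significance analysis of microarrays, a filter on the false discovery rate that was not run here.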

Additional observations from a re-analysis of the deposited data

How the results depend on the processing

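Over all tested probe sets, 602 calls became 2912 under the methods' t-test without adjustment, 85 after Benjamini-Hochberg adjustment, 382 with the replicate block, 366 with 1 probe set per gene, and 321 to 562 with an array left out. For the 10 regulators, 3 called probe sets became 6 under the unadjusted t-test, which added Foxe3, Pitx3 and Sox1. They became 1 after its adjustment. Neither form of the t-test repeats the methods' rule, which also required a call by significance analysis of microarrays. Hopx by 1451776_s_at passed in 15 of 15 settings (1.83 to 2.02) and by 1428662_a_at in 15 of 16, failing with 1.58 under the adjusted t-test (adjusted p = 0.0577). Prox1 kept its direction in 16 settings and passed in 11; it failed at -0.83 under the adjusted t-test (adjusted p = 0.150) and the replicate block (limma adjusted p = 0.0645), and ranged between -0.94 and -0.76 with an array left out. These counts of settings for Hopx and Prox1 include the t-test without adjustment, read at an unadjusted p under 0.05. The labels do not say whether replicate numbers pair the arrays. Deviations from the group means correlated at 0.29, -0.24 and -0.22 between arrays of equal number, and at 0.50 between Hsf4-null replicate 2 and wild-type replicate 3. With 3 arrays per group, such values cannot decide whether arrays were paired. With the block both Hopx probe sets passed, and the counts of called genes were 2 of fibre genes, 2 of SRF targets and 0 in the other 4 lists, as without it; the marker lists were not recounted.

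Calls in the lists under the unadjusted t-test were 3 (other regulators), 2 (fibre entry), 5 (fibre genes) and 5 (SRF targets); after adjustment fibre genes had 1 and SRF targets 0. Trended and robust variance gave 1 for other regulators and 2 for fibre entry. SRF targets had 2 to 4 with an array left out, 4 of them without wild-type replicate 1. Signs of uncalled changes turned when an array was left out, within -0.018 to 0.37 (Pax6 1419271_at), -0.016 to 0.38 (1452526_a_at), -0.043 to 0.038 (1437816_at), -0.29 to 0.042 (1425960_s_at), -0.017 to 0.23 (1456342_at), -0.11 to 0.052 (Mab21l1 1424679_at) and -0.26 to 0.017 (Gata3). The causes were not tested. Dim probe sets, 6 of 18, limit what could be seen of Maf, Sox1 and Foxe3, and Pitx3 lay little above the cutoff for dim.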
